A study of Mus musculus with 16 samples.

Results

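The thrombospondin family was followed in the atria of the heart during the first week after myocardial infarction. The 6 genes are the matrix proteins Thbs1, Thbs2, Thbs3, Thbs4 and Comp, and the receptor Cd47. They were taken by name from the rows of the array that carry exactly 1 gene symbol, 6 of 30141 genes. Among several rows of a gene the row would have been selected on its mean signal over all arrays, which decided nothing here because each of the 6 has 1 row. The family was chosen with earlier results of these data known, among them a large day 1 rise of Thbs1, so that rise, and the later falls of Thbs1 from its day 1 level, are given as a description without a p-value.

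The tissue came from male C57BL/6 mice, with no transgene or deletion named, whose age the labels give as 10 weeks without saying how old they were at sampling. Infarction was produced by ligating the left anterior descending coronary artery, which supplies the left ventricle. Total RNA of atrial tissue was measured on 16 arrays in 4 groups of 4, from sham-operated mice and from mice at day 1, day 3 and day 7 after infarction. The time between sham surgery and sampling is not stated, and the title counts the sham group as 0 days. Arrays keep the numbers of the labels, which run from 1 to 4 in the sham group, from 11 to 14 at day 1, from 31 to 34 at day 3 and from 71 to 74 at day 7.

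Thrombospondins are secreted, calcium-binding glycoproteins that are deposited in the matrix around cells during development and repair rather than forming the matrix itself. Thbs1 and Thbs2 assemble as trimers and carry the repeats that bind the receptor CD36 and latent transforming growth factor beta (TGF-beta). Thbs3, Thbs4 and Comp assemble as pentamers, and Comp, the cartilage oligomeric matrix protein, is known from cartilage and tendon. CD47 is the membrane receptor for the end of Thbs1 and also the ligand of SIRP-alpha, by which it tells phagocytes not to engulf a cell. In the heart Thbs1 is known as a protein of injured and overloaded tissue, and Thbs4 as one of stretched and stressed muscle.

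The RefSeq promoter table for the mouse assembly GRCm38.p6 holds 4 of the 6 members, Thbs2, Thbs3, Thbs4 and Cd47. Shown here are the 250 bases before the annotated start of the 3 matrix genes, since those genes rose together between day 3 and day 7. Capitals mark matches to the motifs searched, on either strand.
Thbs2, chr17:14694263-14694512, minus strand: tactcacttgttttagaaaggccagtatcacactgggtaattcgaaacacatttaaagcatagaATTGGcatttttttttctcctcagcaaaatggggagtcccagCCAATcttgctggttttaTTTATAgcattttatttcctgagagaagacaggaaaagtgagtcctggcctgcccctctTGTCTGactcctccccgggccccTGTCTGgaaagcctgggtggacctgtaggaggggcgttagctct
Thbs3, chr3:89214930-89215179, plus strand: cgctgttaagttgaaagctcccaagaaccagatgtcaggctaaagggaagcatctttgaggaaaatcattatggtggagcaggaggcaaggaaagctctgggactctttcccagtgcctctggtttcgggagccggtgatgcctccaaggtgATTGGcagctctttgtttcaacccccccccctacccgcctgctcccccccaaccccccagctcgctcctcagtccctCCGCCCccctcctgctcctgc
Thbs4, chr13:92794819-92795068, minus strand: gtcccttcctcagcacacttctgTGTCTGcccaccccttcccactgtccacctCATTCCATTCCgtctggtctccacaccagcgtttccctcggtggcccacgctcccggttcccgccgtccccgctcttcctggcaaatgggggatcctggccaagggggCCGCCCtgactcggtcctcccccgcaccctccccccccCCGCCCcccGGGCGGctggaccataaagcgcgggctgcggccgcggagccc
The stretch before Thbs2 held 1 match to the TATA box (TATAAA), printed as its reverse complement, at −126 to −121 from the start. It also held 2 matches to the CCAAT box (CCAAT) and 2 to the SMAD motif (CAGACA), the sequence bound by transcription factors of the TGF-beta pathway. The stretch before Thbs3 held 1 CCAAT box and 1 GC box (GGGCGG). That before Thbs4 held 3 GC boxes, 1 SMAD match and 2 matches to the TEAD motif (GGAATG) that overlap at position −192. Of 32851 promoter stretches of the same length, 12.4% held the TATA letters, 33.8% the CCAAT box, 32.7% the GC box, 17.1% the SMAD letters and 12.6% the TEAD letters. The AP-1 motif (TGANTCA), the RUNX motif (TGTGGT) and the CArG box had no match in the 3 stretches, and 6.75%, 14% and 1.47% of all stretches held them. The GC content was 46.8% before Thbs2, 58.8% before Thbs3 and 70.8% before Thbs4, against a median of 52.4%, so the 3 stretches differ in composition, and no motif searched was matched in all 3. A match is a description of letters, not a site shown to be bound.

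All values are log2 signals as deposited, and differences of them are not turned into folds because the authors' scaling is not stated. A level is not comparable between genes, which have different probes. Errors of levels are SDs over n = 4 arrays, and errors of differences are SEs of a linear model fitted in limma to 18419 genes. A gene was called at a Benjamini-Hochberg adjusted p under 0.05. All 6 members passed the filter on low values that set these 18419, Thbs3 with 13 of 16 arrays above the array median and the others with 16 of 16. The p-values rest on the spread between these 16 arrays, and the comparisons with sham share the same 4 sham arrays.

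Day 1 array 13 and day 3 array 31 stood apart from the other arrays. How far positive control rows lay above negative ones, as an area under the receiver operating curve where 1 is complete, was 0.755 and 0.743 on these arrays and 0.793 to 0.825 on the other 14. The median correlation with the arrays of the same group was 0.987 for array 13 and 0.954 for array 31, against 0.994 to 0.998 elsewhere. Both were kept, and results are given without them where they bear on a call. Among genes known from atrial muscle, the sarcolipin gene Sln was at 17.97 ± 0.19 in sham. Nppa, the gene of atrial natriuretic peptide, lay at the highest value the table reaches. Myl4 was at 7.02 ± 0.12 and Bmp10 was not above background in sham, where the ventricular gene Myl3 was at 16.15 ± 0.11. Since levels are not comparable between genes, these values do not test the tissue label.

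**Figure D1:**
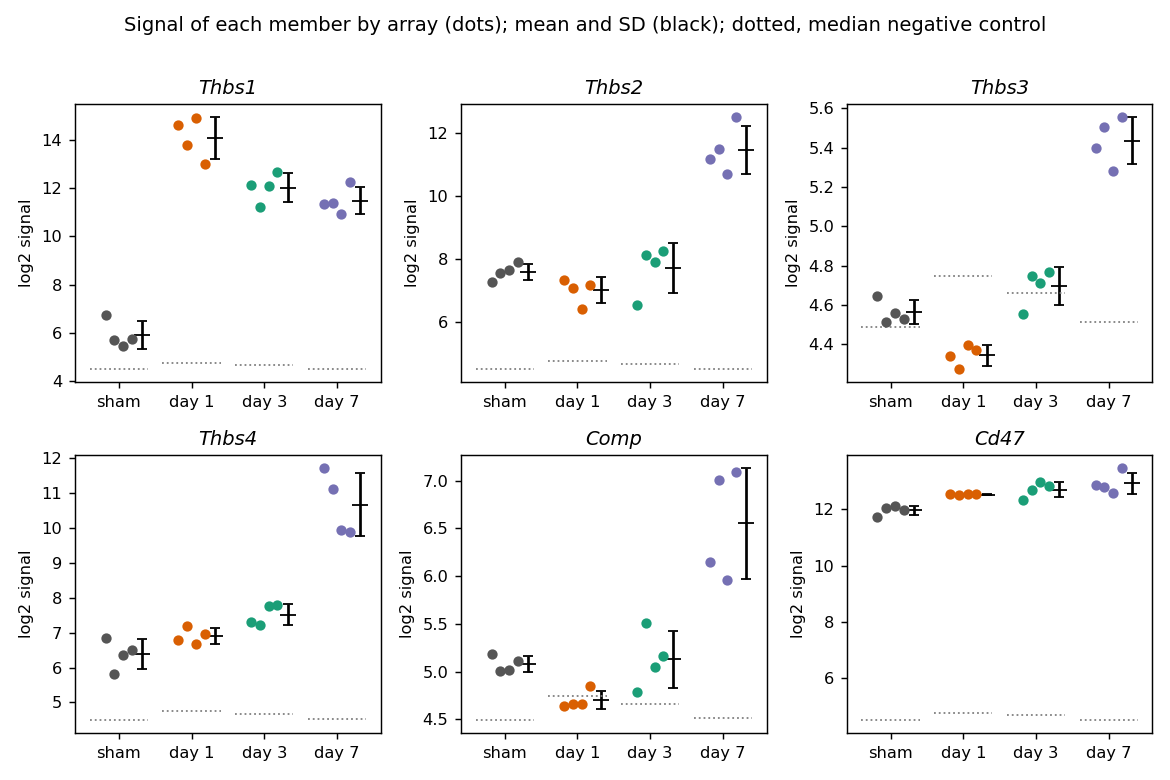
Log2 signal of each family member on each of the 16 arrays by group, with dots for arrays, black lines for group means, and a dotted line for the mean of the negative-control medians in each group. Thbs1 rises on all 4 arrays of day 1, to between 13.02 and 14.93, and stays above sham, while Thbs2, Thbs3, Thbs4 and Comp have their highest 4 values on day 7.

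Thbs1, the member that binds and activates latent TGF-beta, was the early gene of the family. Its signal was 6.76, 5.72, 5.45 and 5.75 on the 4 sham arrays and 14.63, 13.77, 14.93 and 13.02 on day 1. On day 3 it was 12.11, 11.23, 12.08 and 12.69, and on day 7 it was 11.36, 11.39, 10.93 and 12.24. All 12 infarction arrays lay above all 4 sham arrays, the 4 day 1 arrays lay above all of day 3 and day 7, and day 3 and day 7 overlapped.

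Group means of Thbs1 were 5.92 ± 0.57 in sham, 14.09 ± 0.86 on day 1, 12.03 ± 0.60 on day 3 and 11.48 ± 0.55 on day 7 (SD, n = 4). The day 1 difference from sham was 8.17 ± 0.44 (SE), the number 5 rise among 18419 genes. Without array 13, which had the highest Thbs1 of day 1, it was 7.89. Thbs1 was still 6.11 ± 0.44 above sham on day 3 (adjusted p 4.76e-07) and 5.56 ± 0.44 above it on day 7 (adjusted p 2.56e-06), ranks 5 and 8. Its difference from the day 1 level was −2.06 ± 0.44 on day 3 and −2.61 ± 0.44 on day 7. The day 7 difference from day 3, −0.55 ± 0.44, did not pass the test (adjusted p 0.39).

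Thbs2, the closest relative of Thbs1 and a binder of matrix metalloproteinases, had a different time course. Its signal was 7.26, 7.54, 7.64 and 7.90 in sham, and 7.34, 7.07, 6.41 and 7.18 on day 1. It was 6.52, 8.12, 7.91 and 8.26 on day 3, and 11.19, 11.50, 10.70 and 12.51 on day 7. The sham, day 1 and day 3 values overlapped, and every day 7 array lay above every other array, by at least the step from 8.26 to 10.70.

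Thbs2 averaged 7.59 ± 0.26 in sham, 7.00 ± 0.41 on day 1, 7.70 ± 0.80 on day 3 and 11.47 ± 0.77 on day 7. It was 3.89 ± 0.40 above sham on day 7 (adjusted p 1.72e-05), the number 39 rise of that comparison. From day 3 to day 7 it rose by 3.77 ± 0.40 (adjusted p 9.17e-05), the number 5 rise between those days. The day 1 difference of −0.59 ± 0.40 (adjusted p 0.232) and the day 3 difference of 0.12 ± 0.40 (adjusted p 0.83) from sham did not pass, although a fit of day 1 and sham alone gave an adjusted p of 0.0447 for the former. The day 3 difference was −0.02 without array 32 and −0.07 without array 34, so it had no stable sign. Array 31 had the lowest day 3 value. Without it Thbs2 was 0.51 above sham (adjusted p 0.25) and 1.10 above day 1 (adjusted p 0.0217), where the day 3 difference from day 1 with all arrays was 0.70 ± 0.40 (adjusted p 0.356), and without arrays 13 and 31 it was 0.90 (adjusted p 0.0581).

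Thbs4, the pentameric thrombospondin of stressed muscle and tendon, also had its highest signal on day 7. The 4 sham arrays gave 6.86, 5.81, 6.36 and 6.51, and those of day 1 gave 6.80, 7.19, 6.67 and 6.96. Day 3 gave 7.31, 7.21, 7.77 and 7.79, and day 7 gave 11.72, 11.13, 9.95 and 9.87. Day 1 overlapped sham, every day 3 array lay above every sham and day 1 array, and every day 7 array lay above those of day 3.

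The Thbs4 means were 6.39 ± 0.44 in sham, 6.90 ± 0.23 on day 1, 7.52 ± 0.30 on day 3 and 10.66 ± 0.91 on day 7. Its difference from sham was 0.52 ± 0.36 on day 1 (adjusted p 0.234), 1.13 ± 0.36 on day 3 (adjusted p 0.0186) and 4.28 ± 0.36 on day 7 (adjusted p 3.63e-06). The day 7 rise ranked 24 of 18419. From day 3 to day 7 Thbs4 rose by 3.15 ± 0.36 (adjusted p 0.000144). The day 3 step above day 1, 0.61 ± 0.36, did not pass (adjusted p 0.366), although the groups do not overlap. The day 3 call was lost without sham array 2, at 0.94 (adjusted p 0.0634), and after quantile normalisation, at 0.96 (adjusted p 0.0685).

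Comp, the pentamer known from cartilage and tendon, changed by less and from a level near background. Its signal was 5.19, 5.004, 5.02 and 5.11 in sham, 4.64, 4.66, 4.66 and 4.84 on day 1, and 4.79, 5.51, 5.05 and 5.16 on day 3. On day 7 it was 6.15, 7.01, 5.96 and 7.09. The day 1 arrays lay below every sham array, and 3 of them did not exceed the median negative control, nor did 1 of day 3. The day 7 arrays lay above all others, by at least the step from 5.51 to 5.96.

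The Comp means were 5.08 ± 0.09 in sham, 4.70 ± 0.09 on day 1, 5.13 ± 0.30 on day 3 and 6.55 ± 0.58 on day 7. On day 7 Comp was 1.47 ± 0.22 above sham (adjusted p 0.00029), the number 517 rise, and it rose by 1.42 ± 0.22 from day 3 (adjusted p 0.00112). The day 1 difference from sham of −0.38 ± 0.22 did not pass (adjusted p 0.164), though it did in a fit of these 8 arrays alone (adjusted p 0.00234). On day 3 Comp differed from sham by 0.05 ± 0.22 (adjusted p 0.877), and by −0.08 without array 32.

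Thbs3, a pentamer with roles in skeletal growth, was close to background throughout. It gave 4.65, 4.51, 4.56 and 4.53 in sham, 4.34, 4.27, 4.40 and 4.37 on day 1, and 4.56, 4.75, 4.71 and 4.77 on day 3. On day 7 it gave 5.40, 5.50, 5.28 and 5.55. None of the 4 day 1 arrays exceeded its median negative control, nor did 1 of 4 in sham and 1 of 4 on day 3, and the day 7 arrays lay above all others.

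Thbs3 averaged 4.56 ± 0.06 in sham, 4.35 ± 0.05 on day 1, 4.70 ± 0.10 on day 3 and 5.43 ± 0.12 on day 7. On day 7 it was 0.87 ± 0.07 above sham (adjusted p 1.91e-06), the number 1373 rise, and 0.74 ± 0.07 above day 3 (adjusted p 2.49e-05). Its lower day 1 signal passed the test against sham (−0.22 ± 0.07, adjusted p 0.0169), as did the step from day 1 to day 3 (adjusted p 0.00494). Thbs3 was not above background on any day 1 array, so neither size can be read, and of its day 7 rise over day 1 only a bound of at least 0.69 can be given. The negative-control medians averaged 4.49 in sham, 4.75 on day 1, 4.66 on day 3 and 4.51 on day 7, so the background itself was higher where Thbs3 was lowest. On day 3 Thbs3 was 0.13 ± 0.07 above sham (adjusted p 0.119), and 0.18 without array 31 (adjusted p 0.0331). That difference was 0.002 after centring each array on its median (adjusted p 0.978) and 0.019 after quantile normalisation (adjusted p 0.905).

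Cd47, the receptor, lay above the negative controls on every array and was higher after infarction on each day. Its signal was 11.73, 12.05, 12.12 and 11.97 in sham, 12.54, 12.51, 12.54 and 12.54 on day 1, and 12.34, 12.68, 12.97 and 12.85 on day 3. On day 7 it was 12.87, 12.80, 12.59 and 13.47. Every infarction array lay above every sham array, day 3 overlapped day 1 and day 7, and day 7 lay above day 1.

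Cd47 averaged 11.96 ± 0.17 in sham, 12.53 ± 0.02 on day 1, 12.71 ± 0.27 on day 3 and 12.93 ± 0.38 on day 7. It was 0.57 ± 0.18 above sham on day 1 (adjusted p 0.0204), 0.74 ± 0.18 on day 3 (adjusted p 0.00408) and 0.97 ± 0.18 on day 7 (adjusted p 0.00142). No step between infarction days passed: day 3 minus day 1 was 0.18, day 7 minus day 3 was 0.22 and day 7 minus day 1 was 0.40 ± 0.18 (adjusted p 0.104). Without array 31 that last difference passed (adjusted p 0.049), and without arrays 13 and 31 it did not (adjusted p 0.0736). The day 1 rise did not pass without sham array 1, at 0.49 (adjusted p 0.0585). After quantile normalisation it was 0.03 (adjusted p 0.937), the day 3 difference was 0.26 (adjusted p 0.487), and day 7 minus day 1 was 0.91 (adjusted p 0.0314), so the early rise of Cd47 depends on the scaling of the arrays.

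**Figure D2:**
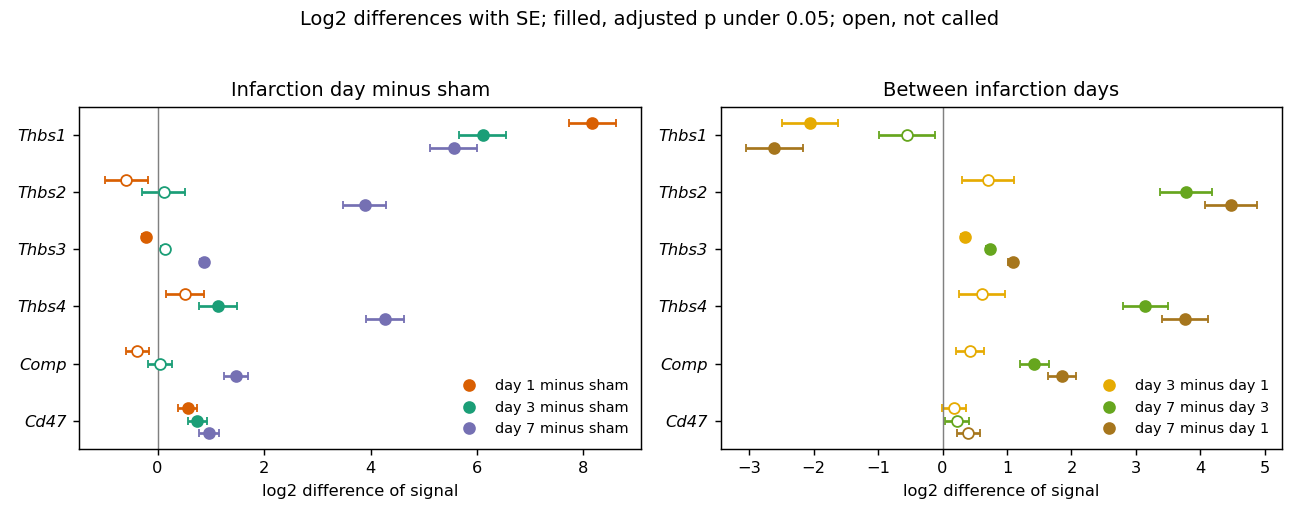
Log2 differences of the 6 members with their SEs, infarction days minus sham on the left and later minus earlier days on the right, where filled dots have an adjusted p under 0.05. On the left Thbs1 is farthest from 0 on day 1, at 8.17, and all 6 members are called on day 7, and on the right Thbs1 lies below 0 while Thbs2, Thbs3, Thbs4 and Comp lie above it on day 7 against day 3.

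Taking the members by day, 2 were called higher on day 1 (Thbs1, Cd47) and 1 lower (Thbs3), where 24.9% of all genes tested were called higher and 22.2% lower. Over either direction 47.1% of all genes were called, and nothing is read from the members' count, which holds the day 1 rise of Thbs1. Their median difference was 0.15 against 0.06 over all genes tested. The groups did not overlap for 4 members, against 55.0% of all genes. On day 3, 3 were called higher (Thbs1, Thbs4, Cd47) and 0 lower, where 43.7% of all genes were called, 23.5% higher and 20.2% lower. Their median was 0.44 against 0.08, and the groups did not overlap for 3 of 6, against 42.8% of all genes.

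On day 7 all 6 were called higher, where 24.8% of all genes were called, 14.9% higher and 9.92% lower, with a median difference of 2.68 against −0.01. For all 6 the groups did not overlap with sham, against 38.3% of all genes. Between day 3 and day 7, 4 members were called higher (Thbs2, Thbs3, Thbs4, Comp) and 0 lower, where 12.6% of all genes were called, 4.06% higher and 8.57% lower (7.9% in all without array 71 and 4.84% after quantile normalisation). Their median was 1.08 against −0.05, and the groups did not overlap for these 4, against 21.9% of all genes. At an unadjusted p under 0.05 in limma, the members lower on day 3 or day 7 against sham, or on day 7 against day 3, were also 0. From day 1 to day 3, 1 member was called higher (Thbs3) and 1 lower (Thbs1), where 8.11% of all genes were called, 5.95% higher and 2.16% lower, and 10.4% had groups that did not overlap, as 3 members had. That share of called genes rested on single arrays: it was 35.5% without array 31, 4.38% without array 11, 4.4% without array 32, 4.57% without array 33, 4.94% without array 34 and 4.21% after quantile normalisation. On day 7 against day 1, 4 were higher (Thbs2, Thbs3, Thbs4, Comp) and 1 lower (Thbs1), where 26.4% of all genes were called, 13.7% higher and 12.7% lower, and 50.2% in all without array 31. The Thbs1 differences in these counts between days again start from its day 1 level and are a description. The groups were apart for all 6 members, against 41.7% of all genes. A test for any difference from sham over the 3 days called all 6 members and 52.3% of all genes. For Thbs1 that test includes the day 1 rise known when the family was chosen, so nothing is read from its call.

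Within day 7 the members did not have the same order over the 4 mice. Array 74 was highest and array 73 lowest for Thbs1, Thbs2, Thbs3, Comp and Cd47. Thbs4 ran otherwise, highest on array 71 at 11.72 and lowest on array 74 at 9.87. On day 1, array 13 was highest for Thbs1 and Thbs3 and lowest for Thbs2 and Thbs4, and on day 3, array 31 was lowest for Thbs2, Thbs3, Comp and Cd47.

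Cell type marker lists differed in their time course, as the members did. Over all genes tested, 24.9%, 23.5% and 14.9% were called higher against sham on day 1, day 3 and day 7, and 22.2%, 20.2% and 9.92% lower. These shares stand beside every list count against sham that follows from all arrays as deposited. In other settings the shares differ. As deposited, 4593 of 18419 genes were called higher on day 1, against 6552 without array 31 and 2615 after quantile normalisation. On day 3 these were 4331, 4934 and 2629, and on day 7 they were 2741, 3595 and 1858. A list count in another setting is therefore not set against the shares given here. In bulk tissue, fewer cells of a type and less RNA per cell cannot be told apart. Platelets store thrombospondin 1 protein, and of 9 platelet genes on the array, 5 of 7 tested were called higher on day 1, 2 on day 3 and 0 on day 7, when Pf4 and Ppbp were 0.44 and 0.46 above sham. Their mean log2 signal ranged from 4.57 to 4.74 in sham, 5.54 to 6.24 on day 1, 5.37 to 5.72 on day 3 and 4.66 to 4.86 on day 7. The chemokine gene Ppbp was 5.59 ± 0.49 and Pf4 3.41 ± 0.25 above sham on day 1. Of the 9 genes, 5 were not above background in sham, Itga2b, Gp6, Gp9, Treml1 and Clec1b. Gp9 was above it on at least 1 array of day 1 and of day 7 but on none of day 3, Gp5 was above it in sham only, and the other 4 were not above it in any group. The 5 calls of day 1 were Ppbp, Pf4, Gp9, Gp6 and Clec1b, and of the latter 2 no size can be read. Under a filter of 12 arrays above the array median, 3 platelet genes were called higher on day 1, where 4355 of 16691 genes were. The part of platelets in the Thbs1 result was not tested.

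Of 12 myeloid genes, 10 were called higher on day 1, 11 on day 3 and 6 on day 7, with mean signals of 6.99 to 7.25 in sham, 11.32 to 12.37 on day 1, 10.23 to 11.6 on day 3 and 8.35 to 9.21 on day 7. Arg1, an enzyme of recruited macrophages, was 8.51 ± 0.66 above sham on day 1 and 7.01 ± 0.66 on day 3. Only Retnlg, a neutrophil gene, was at background in sham, and no myeloid gene was at background after infarction. The myeloid mean and the Thbs1 level were both highest on day 1, and the part of the myeloid genes in the Thbs1 result was not tested.

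Of 11 fibroblast genes tested, 0 were called higher and 7 lower on day 1, 3 higher and 3 lower on day 3, and 8 higher and 1 lower on day 7. Their mean signal ranged from 9.33 to 9.58 in sham, 8.23 to 8.93 on day 1, 8.64 to 10.23 on day 3 and 11.21 to 11.68 on day 7, and none was at background in any group. Cthrc1, a gene of activated fibroblasts, was 3.71 ± 0.31 above sham on day 7, and Col1a1, the main fibrillar collagen gene, 6.73 ± 0.56. Of 8 smooth muscle genes, 1 was called higher and 1 lower on day 1, 0 and 1 on day 3, and 4 and 0 on day 7, among them Tagln at 2.52 ± 0.49. Fibroblast and smooth muscle means were highest on day 7, as were Thbs2, Thbs3, Thbs4 and Comp, and their part in those results was not tested. Array 31 had the lowest fibroblast mean of day 3, 8.64, and the lowest smooth muscle mean, 7.36, and without it 1 smooth muscle gene was called higher on day 3. The 1 lower on day 1, Rgs5, was not called without array 13.

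Atrial muscle genes had a lower mean signal on every infarction array than on any sham array. Of 7 tested, 0 were called higher and 5 lower on day 1 and on day 3, and 0 either way on day 7, with means of 12.34 to 12.53 in sham, 9.08 to 10.56 on day 1, 8.31 to 11.27 on day 3 and 11.06 to 12.2 on day 7. Single arrays weighed on these counts: 3 were lower on day 1 without sham array 2, sham array 4 or array 12, and 3 on day 3 without sham array 1, 2 or 4 or array 31. On day 7, 3 were lower without array 31 and 1 without array 12 or array 33. Ventricular muscle genes were called lower in 5, 6 and 3 of 6 on the 3 days, with medians of −0.83, −1.05 and −0.65. The medians were −0.66, −0.23 and 0.33 over 7 endothelial genes, −0.35, 0.06 and 0.15 over 8 mesothelial genes and −0.13, −0.23 and 0.03 over 5 skeletal muscle genes. On day 1, 4 of the 7 endothelial genes were called lower and 1, Emcn, higher. On day 3, 1 was called lower and 2, Cdh5 and Emcn, higher. Of the 5 skeletal muscle genes, 3 were called lower on day 3 and 1, Tnnt3, higher. Of the 8 mesothelial genes, 2 were called lower on day 1. Aldh1a2, of the same list, was called higher on all 3 days, at 2.75 ± 0.27, 3.56 ± 0.27 and 1.49 ± 0.27. Several of the calls of 1 or 2 genes in these 3 lists changed with single arrays left out. The counts of 0 against sham given for cell type and pathway lists were also 0 at an unadjusted p under 0.05 in limma, except for 2 atrial muscle genes lower on day 7.

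**Figure D3:**
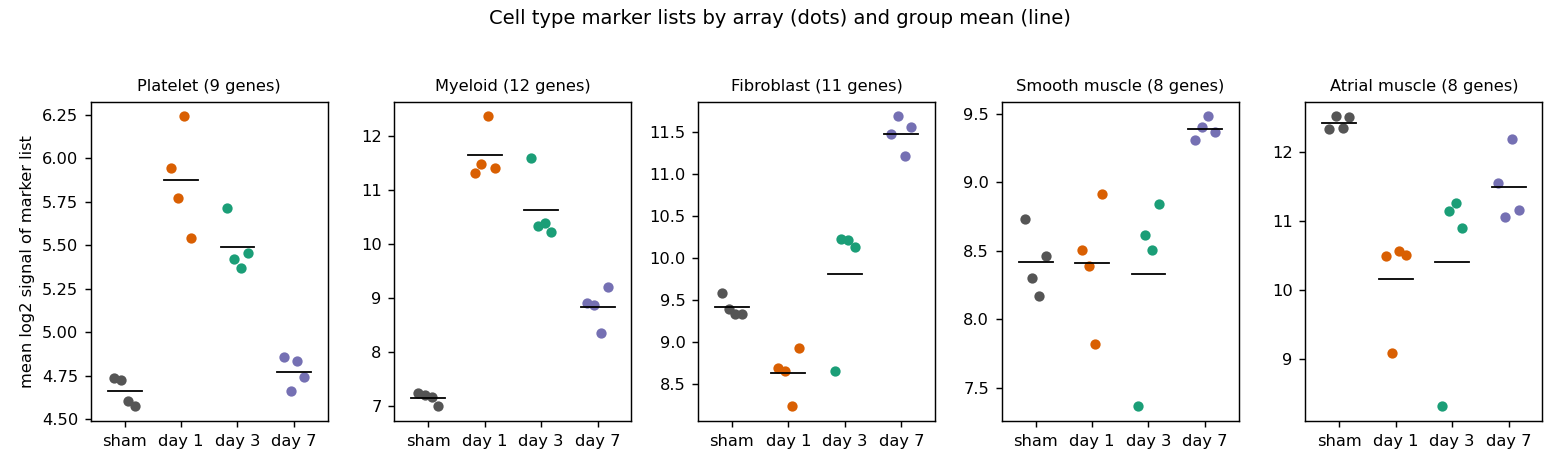
Mean log2 signal of 5 cell type marker lists on each array (dots) with group means (lines). Platelet and myeloid means are highest on day 1, at up to 6.24 and 12.37, while fibroblast and smooth muscle means are highest on day 7, at 11.21 to 11.68 and 9.31 to 9.48.

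Receptors and partners that bind thrombospondins or CD47 were called higher in 10 of 14 on day 1, 10 on day 3 and 8 on day 7, and lower in 0, 2 and 0. Their median difference from sham was 0.48, 0.94 and 0.40, against 0.06, 0.08 and −0.01 over all genes tested. Sirpa, which encodes the CD47 partner on phagocytes, was 1.26 ± 0.20 above sham on day 1, 2.04 ± 0.20 on day 3 and 1.89 ± 0.20 on day 7. Sdc4, a heparan sulphate proteoglycan that binds thrombospondins, was 2.41 ± 0.17 above sham on day 1. The scavenger receptor gene Lrp1, through which thrombospondins are taken up, was 1.88 ± 0.20 above sham on day 3 and 1.94 ± 0.20 on day 7. The 2 lower genes on day 3 were Cd36 and Cacna2d1, the latter encoding the calcium channel subunit that binds thrombospondins at synapses, and without any 1 of the 4 sham arrays 1 gene was called lower. After quantile normalisation 5 were called higher on day 1. Without array 31, 2 were called lower on day 1, and without array 13, 7 were called higher then.

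Genes of latent TGF-beta and its activation were called higher in 5 of 11 on day 1, 8 on day 3 and 8 on day 7, and lower in 3, 3 and 1, with medians of 0.21, 0.60 and 0.97. Tgfb3 was 2.50 ± 0.62 above sham on day 1 and 3.13 ± 0.62 on day 7, and Tgfb2 2.42 ± 0.27 and 1.62 ± 0.27. Itgb6, the epithelial integrin subunit that frees TGF-beta, was 1.61 lower on day 1, at −1.61 ± 0.13, and Ltbp2, a matrix protein of the latent TGF-beta binding family, was 2.38 ± 0.24 higher on day 7. Of 11 genes known as TGF-beta targets, 4 were called higher on day 1, 10 on day 3 and 10 on day 7, and 0 lower, with medians of 0.84, 3.97 and 2.87. Fn1, the fibronectin gene, was 4.91 ± 0.44, 6.09 ± 0.44 and 7.18 ± 0.44 above sham on the 3 days, and Postn, the periostin gene, 6.88 ± 0.67 on day 7. Without array 31, 6 target genes were called higher on day 1. After quantile normalisation 5 activation genes were called higher on day 3.

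Thbs4 is known to act inside cells with ATF6, a sensor of protein folding in the endoplasmic reticulum. Of 13 folding genes tested, 9 were called higher on day 1 and 8 on day 3, with medians of 0.75 and 0.59, when Thbs4 was 0.52 and 1.13 above sham. On day 7, when Thbs4 was 4.28 above sham, 2 were higher and the median was 0.14. Of the 13, 7 were called lower on day 7 than on day 3, where 8.57% of all genes tested were. Of all calls between these days 32.1% were higher as deposited and 59.5% after quantile normalisation, and the list count was not recomputed there. A link between Thbs4 and the folding genes was not tested. Creld2, a folding factor, was 2.07 ± 0.25 above sham on day 1, and Pdia6, a disulphide isomerase, was 1.86 ± 0.19 above it on day 3 and 0.66 ± 0.19 on day 7. Herpud1, of the degradation pathway for misfolded proteins, was the 1 gene called lower on each of the 3 days, at −3.25 ± 0.58, −3.14 ± 0.58 and −1.96 ± 0.58. The 2 day 7 rises were 0 without sham array 3, sham array 4, array 71 or array 74, and 1 without array 72. The day 7 fall of Herpud1 was not called without sham array 3, sham array 4, array 72 or array 74, and 2 genes were lower without array 31. Without array 33, 2 were lower on day 3. After quantile normalisation 4 genes were called higher on day 1, 5 on day 3 and 0 on day 7.

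The nitric oxide and cyclic GMP genes, with which Thbs1 interferes through CD47, had 1 of 7 called higher and 3 lower on day 1, 1 and 1 on day 3, and 3 and 0 on day 7. Of all genes tested, 24.9%, 23.5% and 14.9% were called higher on these days and 22.2%, 20.2% and 9.92% lower. The list medians were −0.52, −0.06 and 0.47 against 0.06, 0.08 and −0.01 over all genes tested. Gucy1b1, a subunit of the nitric oxide receptor, was −1.10 ± 0.36 from sham on day 1, and Prkg1, the cyclic GMP-dependent kinase, −0.95 ± 0.23. Vasp, a substrate of that kinase, was 0.56 ± 0.08 above sham on day 1. On day 7 Pde5a, which breaks down cyclic GMP, was 0.78 ± 0.14 above sham.

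Proteases that cut thrombospondins or that thrombospondins bind were called higher in 4 of 8 tested on day 1, 5 on day 3 and 3 on day 7, and lower in 3, 1 and 1. Of all genes tested, 24.9%, 23.5% and 14.9% were called higher on these days and 22.2%, 20.2% and 9.92% lower. The list medians were 0.88, 1.21 and 0.83 against 0.06, 0.08 and −0.01 over all genes tested. Elane and Ctsg, of neutrophil granules, were on the array but were not tested. Adamts4 and Mmp9, both called higher on day 1 and day 3, were not above background in sham or on day 7. Under a filter of 12 arrays above the array median, 2 proteases were called higher on day 1 and 3 on day 3. With that filter 4355 of 16691 genes were called higher on day 1 and 4165 on day 3. Adamts1, which cleaves Thbs1 and Thbs2, was 3.53 ± 0.31 above sham on day 1 and 1.79 ± 0.31 on day 3. Mmp14, a membrane-bound protease, was 1.63, 3.02 and 3.72 ± 0.30 above sham on the 3 days, Mmp2, taken up by cells with Thbs2, was 3.23 ± 0.31 above it on day 7, and Adamts12, a protease that cuts Comp, 2.16 ± 0.18. Adamts7, another protease of this list, was called lower on all 3 days, and it was not above background on day 1. Mmp9 was at least 1.97 above sham on day 1. Without array 31, 5 proteases were called higher on day 7.

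Of 11 transcription factors known to act on Thbs1, 4 were called higher on day 1, 4 on day 3 and 2 on day 7, and lower in 1, 1 and 0. Of all genes tested, 24.9%, 23.5% and 14.9% were called higher on these days and 22.2%, 20.2% and 9.92% lower. The list medians were 0.13, 0.24 and 0.03 against 0.06, 0.08 and −0.01 over all genes tested. Klf6 was 1.88 ± 0.27 above sham on day 1 and Hif1a, the hypoxia-inducible factor gene, 1.70 ± 0.11, with 1.39 and 1.03 on day 3 and day 7. Myc, known to lower Thbs1, was 1.51 ± 0.13 above sham on day 1. After quantile normalisation 2 were called higher on day 3, and the count of lower genes was 2 on day 1 without array 31, 2 on day 3 without array 13 or array 33, and 1 on day 7 without array 31.

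Tendon and cartilage genes are the known company of Thbs4 and Comp. Of 17 on the array 9 were tested, with 2 called higher and 2 lower on day 1, 4 and 1 on day 3, and 6 and 0 on day 7. Their medians were 0.00, 0.24 and 0.75. Cilp, a cartilage matrix protein also made by heart fibroblasts, was 4.22 ± 0.46 above sham on day 7 and Col12a1, a collagen of tendon, 4.00 ± 0.35. Prg4, the joint lubricant gene, ran with the early days, at 6.15 ± 0.83 on day 1. Of the 17 genes, 11 were not above background in sham and 7 on day 7. Among the defining ones, Mkx, Chad and Acan were not above it in any group, while Scx, Tnmd, Col2a1 and Col11a1 were above it on at least 1 array of day 7 but on none in sham, on day 1 or on day 3. The mean over the 17 was 4.69 to 4.91 in sham and 5.37 to 5.60 on day 7, and the part of these cells in the Comp and Thbs4 results was not tested. On day 3, 2 were called higher without array 34, and 2 after quantile normalisation.

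**Figure D4:**
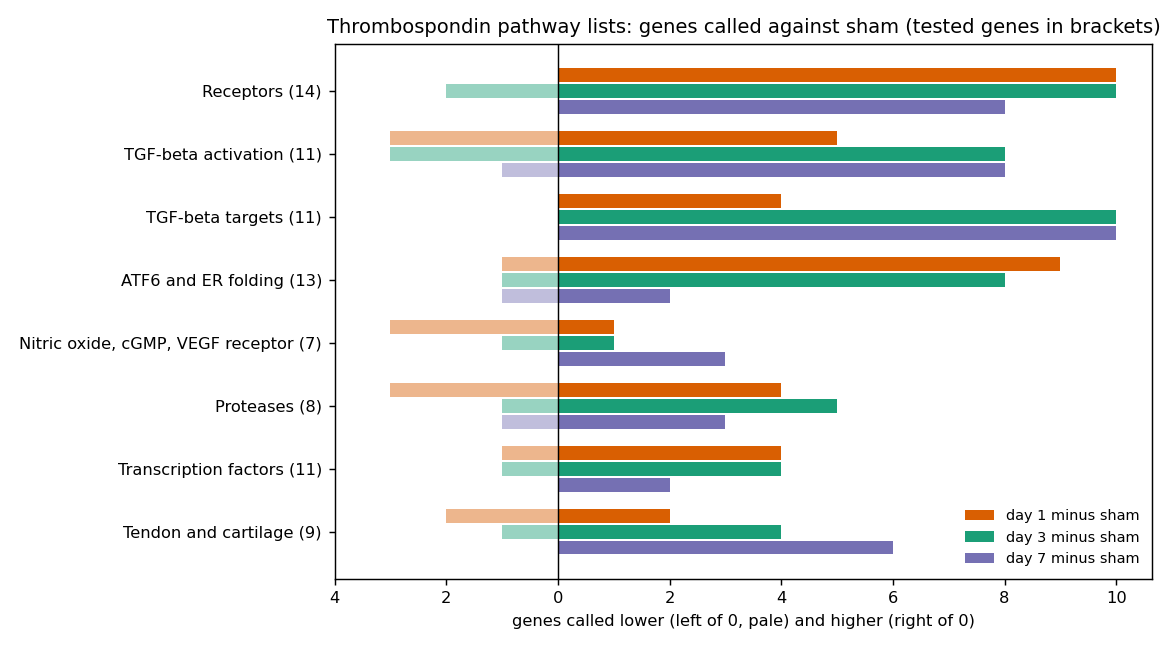
Number of genes called higher (right of 0) and lower (left of 0, pale) against sham on each day in 8 lists of genes linked to thrombospondins, with the number tested in brackets. Receptors have 10, 10 and 8 genes called higher on the 3 days, and folding genes fall from 9 on day 1 to 2 on day 7.

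The genes whose pattern was most like each member were ranked by Pearson r over the 16 arrays, as a description, since all arrays enter every r and group differences carry most of it. For Thbs1 they were Hif1a (r = 0.98), the lectin gene Clec4n (0.976), the Fc receptor gene Fcgr3 (0.974), Lilr4b (0.974) and Cd53 (0.974), the latter 4 known from white blood cells. For Cd47 they were Slc29a3 (0.959), Elf1 (0.958), Il10ra (0.957), Cybb (0.956), which encodes a subunit of the phagocyte oxidase, and Zc3hav1 (0.952).

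The 4 late members had other neighbours. Those of Thbs2 were Map3k7cl (0.982), Zfp354c (0.980), the protease gene Mmp2 (0.979), the growth factor gene Ptn (0.978) and Pdgfrl (0.977). Those of Thbs3 were Pdgfrl (0.987), the fibroblast activation protein gene Fap (0.986), Fndc1 (0.986), Antxr1 (0.985) and Gpc6 (0.984). Comp had Sertad4 (0.975), Adamtsl2 (0.972), Gpc6 (0.972), Tanc2 (0.967) and Fap (0.967). The elastin gene Eln (0.969) was nearest to Thbs4, before the Wnt inhibitor gene Frzb (0.948), Kcnj15 (0.946), Cilp (0.944) and C4b (0.944). Without arrays 13 and 31, 22 of these 30 names stayed in the 5 nearest.

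**Figure D5:**
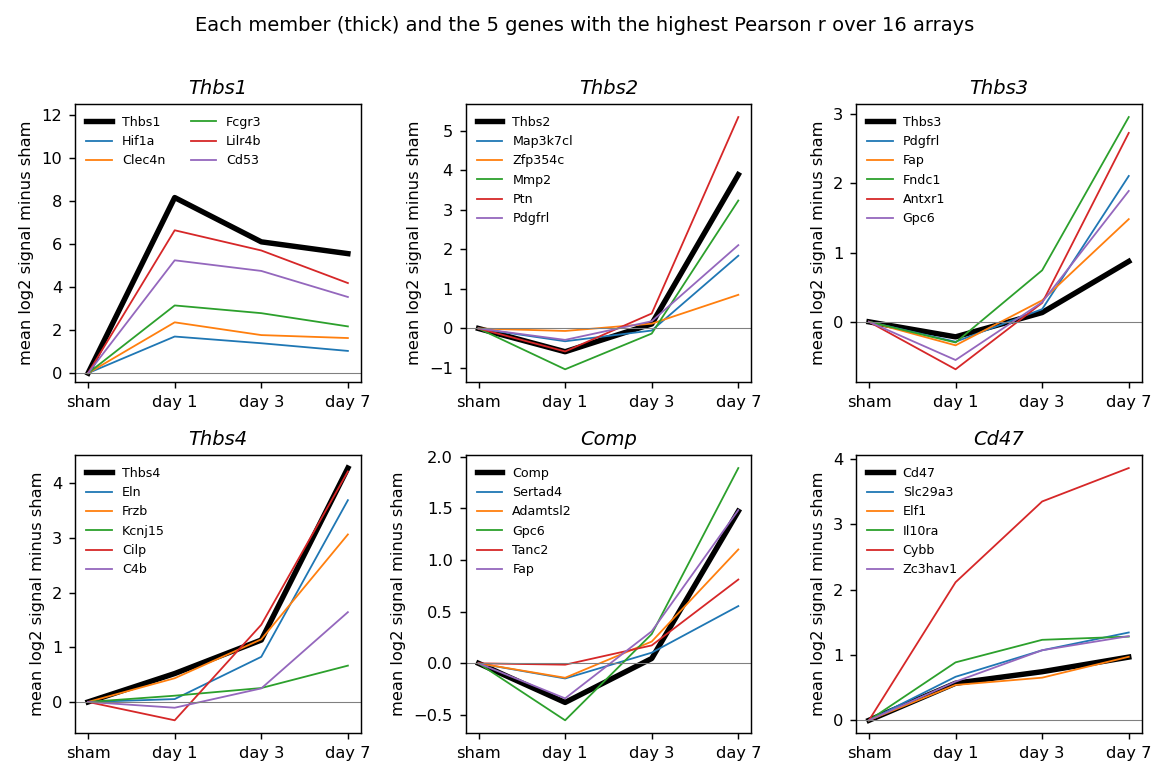
Mean log2 signal minus the sham mean for each member (thick) and the 5 genes with the highest Pearson r to it (thin), by group. The Thbs1 neighbours peak on day 1 with it, those of Thbs2, Thbs3, Thbs4 and Comp are highest on day 7, and the Cd47 neighbours are higher on every infarction day than in sham.

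The members' rows measure gene regions that overlap other genes in some cases. In RefSeq for GRCm38.p6, Thbs3 and Comp each overlap 1 long noncoding RNA gene and Cd47 overlaps 1 further transcript, and Thbs1, Thbs2 and Thbs4 overlap none. Signals of overlapping transcripts cannot be told apart here.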

How the data were processed

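Atrial RNA of 16 mice was measured on 1 array each. The deposited table gives log2 signals, which the authors made with Affymetrix Expression Console per the submitters' processing notes. For background correction, summarisation and scaling no source used here gives the steps. The array design is uncertain, since rows are named as transcript clusters and not as probe sets of the array in the labels. Of 72688 rows, 6732 are controls, 30604 carry 1 symbol, 2146 several and 33206 none in the annotation used. The row with the highest mean stood for each of 356 genes with several rows. Genes above the array median on at least 4 arrays were tested (18419).

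limma 3.58.1 in R 4.3.3 (lmFit, eBayes with trend) fitted 1 mean per group over all 16 arrays, with Benjamini-Hochberg adjustment within each of 6 comparisons. On simulated data for day 1 minus sham, with 200 of 18419 genes changed, 81% of shifts of 1 and 94% of shifts of 2 on the log2 scale were recovered. The simulation used independent normal values, and far fewer genes changed in it than the 47.1% called on day 1. These rates therefore do not give the share recovered in the deposited data. Where all 4 arrays of a group had a gene no higher than the median of 5222 negative controls, it counted as not above background (a rule set after the data were seen). Differences were then given as bounds, computed against the mean negative-control median of that group.

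The members and gene lists were chosen with earlier results of these data known. Named genes are the members, the 3 called genes of each list and day with the largest difference, and the 5 most like each member by Pearson r. The Scx, Tnmd, Mkx, Chad, Acan, Col2a1, Col11a1, Itga2b, Gp5, Gp9, Treml1, Clec1b, Elane, Ctsg, Adamts4, Adamts7, Cd36, Cacna2d1, Myl4 and Bmp10 genes were named after their values were seen. Alternatives changed the normalisation, filter, variance trend, groups in the fit, array weights, row per gene and the arrays left out.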

Additional observations from a re-analysis of the deposited data

Results flagged for a closer look

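Comp on day 1 had 1 array apart from the other 3, array 14 at 4.84, with a gap to its nearest neighbour, relative to the range of the group, above Dixon's critical value for 4 samples. Of 24 groups tested (6 members in 4 groups) this was the 1 found, where chance gives about 1 in 20.

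Several members differed from sham by unlike amounts on different days, by the moderated test of the day-to-day difference in limma. Thbs1 changed by −2.06 from day 1 to day 3 and by −2.61 from day 1 to day 7. The Thbs1 values start from a day 1 level known when the family was chosen and are a description. From day 3 to day 7 the differences were 3.77 for Thbs2, 0.74 for Thbs3, 3.15 for Thbs4 and 1.43 for Comp. From day 1 to day 7 they were 4.47 for Thbs2, 1.09 for Thbs3, 3.76 for Thbs4 and 1.85 for Comp. The Comp value starts from a day 1 level where 3 of 4 arrays did not exceed the median negative control. The 1.09 of Thbs3 cannot be read as a size, since Thbs3 was not above background on day 1. Only a bound of at least 0.69 can be given for that rise. Thbs3 also differed by 0.35 between day 1 and day 3, where its day 1 level was not above background and no size can be read.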

How the results depend on the processing

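Of 936 member differences recomputed under other settings, 912 kept their direction and side of the threshold, 7 lost a call, 10 gained 1 and 7 changed sign. Part of that agreement was built in. Each member has 1 row, so changing the row per gene could not alter its values. The filter, the variance trend, fits of 2 groups and leaving out an array of a group not compared could alter only the p-value. All member calls of day 7 against sham and against day 3 held in every setting run. The sign changed for Comp on day 3 against sham after quantile normalisation (−0.103), centring (−0.0852) and without array 32, and with each array left out it ranged from −0.0806 to 0.16. It changed for Thbs2 there after quantile normalisation (−0.0763), centring (−0.0167) and without array 32 or array 34, with a range from −0.0715 to 0.509. None of these is called. Fits of the 2 groups compared called 5 members rather than 3 on day 1 against sham, and 1 rather than 2 for day 3 against day 1. Quantile normalisation called 1 rather than 3 on day 3 against sham and 1 rather than 2 for day 3 against day 1, where Thbs3 had an adjusted p of 0.0517 in limma. The cause was not tested. With each array left out, the members called were 2 to 3 on day 1, 2 to 4 on day 3 and 6 to 6 on day 7 against sham, 2 to 3 for day 3 against day 1, 4 to 4 for day 7 against day 3 and 5 to 6 for day 7 against day 1. Array weights called Cd47 for day 7 against day 1, Thbs2 for day 3 against day 1 and Thbs3 on day 3.

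Scaling moves the split of calls over all genes. Against sham, the share of calls that were higher was 52.9% on day 1 as deposited, 30.3% after quantile normalisation and 38.5% after centring, and 53.8%, 36.1% and 36.9% on day 3. It was 60%, 60.8% and 37.9% on day 7, and between day 7 and day 3 it was 32.1%, 59.5% and 42.5%. Between day 7 and day 1 it was 51.8% as deposited and 75% after quantile normalisation, which moved the median of all genes from 0.06 to −0.15 on day 1 against sham. No paired analysis was possible because the groups share no replicate numbers. The 4 arrays per group and the low signals of Thbs3 and Comp limit the precision.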
